A study of Mus musculus with 24 samples.

Results

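The expression of 10 genes that set the identity of mouse BAF chromatin remodelling complexes was followed across 24 RNA-seq libraries of primary cortical neurons. They were chosen by name: the ATPases Smarca2 and Smarca4, the BAF subunits Arid1a and Arid1b, the PBAF subunits Arid2, Pbrm1 and Brd7, and the ncBAF subunits Brd9, Bicra and Bicral. They are 10 of the 55177 genes to which the deposited transcripts were assigned, and for each gene the estimated counts of all its transcripts were summed. All 10 passed the filter on low counts in every fit.

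Neurons came from the cortex of embryonic day 16.5 embryos, and per the labels' protocols each embryo's cortex was taken as 1 biological replicate. All cultures were silenced overnight with 1 µM tetrodotoxin and 100 µM D-AP5, which block sodium channels and NMDA receptors. They were then left at rest or depolarized with 50 mM KCl for 30 min. Naive wild-type neurons at day in vitro (DIV) 7 received 0.1% DMSO, and their 2 resting and 2 KCl libraries were made from poly(A) RNA. The 20 libraries at DIV18 were made from rRNA-depleted total RNA. They comprised neurons with a non-targeting guide RNA (NT, 2 at rest and 2 under KCl), and neurons with a knockout of Smarcc2, which encodes the scaffold subunit BAF170. The knockout was combined with an empty vector (3 at rest, 3 under KCl), with addback of wild-type Smarcc2 (WT, 2 and 3), with addback of the substitution S586E (3, rest only) or with addback of S586A (2, KCl only). Age and RNA selection changed together, so their parts in a difference between DIV7 and DIV18 cannot be told apart.

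BAF complexes use ATP to slide or evict nucleosomes, and their motor is either SMARCA2 (BRM) or SMARCA4 (BRG1), never both in the same particle. The motor is shared by 3 classes of complex. Canonical BAF contains ARID1A or ARID1B, which also exclude one another. PBAF carries ARID2, PBRM1 and BRD7, and non-canonical BAF (ncBAF) carries BRD9 together with BICRA or BICRAL and lacks an ARID subunit. In developing neurons the family is known for exchanging subunits as progenitors leave the cell cycle, and mutations in ARID1B, ARID1A and SMARCA2 cause human neurodevelopmental syndromes.

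The DNA upstream of Arid1a and Smarca2 is shown because these genes carry the clearest differences between constructs, in opposite directions. The sequences are RefSeq promoter entries on GRCm38.p6, cut where the GENCODE gene begins, and capitals mark the GC box GGGCGG on either strand. The Arid1a stretch is chr4:133756770-133757019 on the minus strand (250 bases) and the Smarca2 stretch is chr19:26604910-26605049 on the plus strand (140 bases).
Arid1a: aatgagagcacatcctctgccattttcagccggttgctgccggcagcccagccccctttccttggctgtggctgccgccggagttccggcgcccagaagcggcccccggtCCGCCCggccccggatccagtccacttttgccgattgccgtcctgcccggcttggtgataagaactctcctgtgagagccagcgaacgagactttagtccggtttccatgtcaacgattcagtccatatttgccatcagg
Smarca2: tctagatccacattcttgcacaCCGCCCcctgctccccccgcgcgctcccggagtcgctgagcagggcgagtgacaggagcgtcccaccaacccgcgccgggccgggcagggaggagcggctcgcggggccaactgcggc
RefSeq entries were found for 7 of the 10 genes, all but Arid2, Bicra and Bicral. In the 250 bases before their start sites, 6 of the 7 held a GC box, against 32.8% of 32841 promoter windows of that length. None of the 7 held the cAMP response element TGACGTCA (1.55% of windows), the AP-1 element TGANTCA (6.75%) or CCAAT on either strand (33.9%).

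Library depth was 24536056 to 30135576 estimated counts at DIV7 and 14510199 to 24024959 at DIV18. All vector libraries (14510199 to 19177644) were shallower than all NT libraries (19890849 to 23835270). The part of depth in differences between vector and NT was not tested. The least counted member, Bicra, had at least 236 counts in each library. Smarcc2 itself stood at 237 and 265 counts per 1000000 (CPM, after TMM scaling within each age) in NT at rest, 47.1 to 64.1 in the vector libraries at rest and 756 to 816 with WT addback. With S586E it reached 1164 to 1276 CPM, and with S586A under KCl 1303 to 1340 CPM, so the addbacks carried more Smarcc2 RNA than NT. Neuronal markers summed to between 3863 and 5600 CPM in all libraries, and astrocyte markers to between 526 and 1884 CPM. All marker sums given here and below are per 1000000 counts assigned to genes, without TMM scaling. Fos, an immediate early gene, stood at 3.65 and 4.47 CPM at rest against 598 and 618 under KCl at DIV7, and at 2.75 to 8.34 against 32.7 to 197 CPM at DIV18.

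On the TPM scale, a level per transcript length, Smarca2 and Smarca4 were the highest 2 members in all 24 libraries and Bicra, a subunit found in ncBAF, the lowest. The ATPases together took 44.7% to 45.6% of the summed TPM of the 10 genes at DIV7 and 41.9% to 48.6% at DIV18. Canonical BAF subunits took 13.99% to 15.5% at DIV7 and 16.5% to 21.5% at DIV18, and PBAF subunits 19.2% to 21.2% and 18.6% to 23.9%. The ncBAF subunits took 18.7% to 21.2% at DIV7 and 12.6% to 17.7% at DIV18, and for both canonical BAF (higher at DIV18) and ncBAF (lower at DIV18) the ranges of the ages did not overlap. These shares and ranks count all transcripts and were not computed for protein-coding ones alone. Brd9 has 12 annotated transcripts, 4 of them protein-coding, and Brd7 has 7, with 1 protein-coding.

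Brd9, the bromodomain protein that defines ncBAF, was the member whose place in the order differed most between the ages. It held the third rank in all 4 DIV7 libraries, with 14.02% to 16.0% of the members' TPM, and ranks 5 to 8 at DIV18, with 5.67% to 9.04%. On a common CPM scale its mean was 86.5 at DIV7 rest and 35.4 in NT at rest. The log2 difference was -1.29, while the median of 15274 genes was -0.06 and 11.4% of them had a lower value than Brd9. For the other 9 members this difference ran from -0.48 (Bicra) to 0.10 (Bicral). Arid1a took over the third rank in all 20 DIV18 libraries. Bicral, the paralogue of Bicra, had a share of at most 3.95% at DIV7 and of at least 5.29% at DIV18, but 10.9% of its 31-base words also occur in the annotated gene Gm26904, so its level is uncertain. For each of the other 9 members at most 2.65% of such words occur in any other gene.

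**Figure D1:**
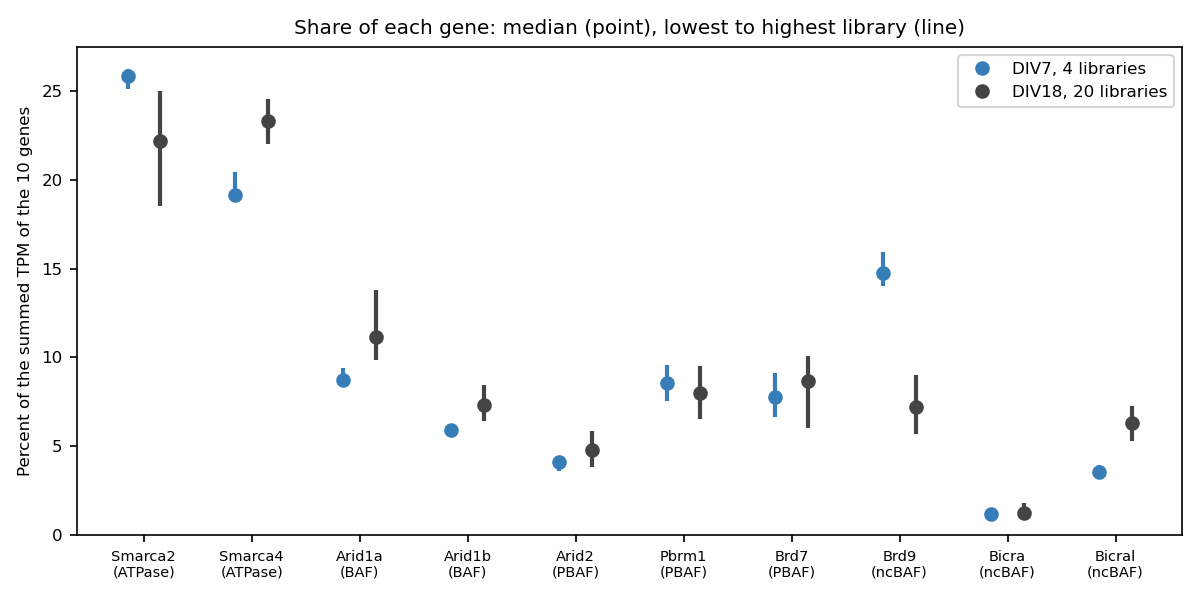
Share of each gene in the summed TPM of the 10 genes, in percent, as the median (point) and the range over libraries (line) at DIV7 (blue, 4 libraries) and DIV18 (dark grey, 20 libraries). For Brd9 the DIV7 range (14.02% to 16.0%) lies wholly above the DIV18 range (5.67% to 9.04%).

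The balance of the ATPases also differed in level between the ages. The ratio of Smarca2 to Smarca4 TPM was 1.23 and 1.36 at DIV7 rest and 1.34 and 1.39 under KCl. In NT neurons at DIV18 it was 1.04 and 1.01 at rest and 0.949 and 1.06 under KCl. All 4 DIV7 libraries lay above all 4 NT libraries with all transcripts counted. Smarca2 has 46 annotated transcripts and only 62.5% to 64.3% of its TPM at DIV7 rest lay in protein-coding ones, whereas all 4 Smarca4 transcripts are protein-coding. With protein-coding transcripts alone, the mean ratio was 0.823 at DIV7 rest and 0.718 in NT at rest, so Smarca4 was then the higher of the pair at both ages. The ages then overlapped, with 0.767 in DIV7 rest replicate 1 and 0.779 in NT KCl replicate 2. The ratio of Brd7 to Brd9 went the other way, from a mean of 0.564 at DIV7 rest to 1.08 in NT at rest (0.266 and 0.517 with protein-coding transcripts alone).

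At DIV7, 30 min of KCl moved 3 of the 10 members past the threshold: Arid1a and Pbrm1 rose and Bicra fell. Over all 19822 genes tested 17% were called, so 3 of 10 is near the background. Arid1a, the DNA-binding subunit of canonical BAF, stood at 225 and 245 CPM at rest and at 266 and 277 under KCl. Both KCl libraries lay above both resting ones, and the log2 fold change was 0.21 (SE 0.054, edgeR quasi-likelihood adjusted p = 0.040). Pbrm1, the multi-bromodomain reader of PBAF, stood at 102 and 108 CPM at rest and at 123 and 119 under KCl. Its groups did not overlap either, with a log2 fold change of 0.21 (SE 0.051, edgeR adjusted p = 0.031). Bicra stood at 27.2 and 30.98 CPM at rest and at 19.9 and 23.0 under KCl. The KCl libraries were the lower ones, with a log2 fold change of -0.44 (SE 0.103, edgeR adjusted p = 0.029).

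The fall of Bicra lay in its transcript Bicra-204, which carried a mean of 7.36 TPM at rest and 4.94 under KCl, while the shorter Bicra-201 had 0.751 and 1.15 TPM. These are 2 libraries against 2, and the error of assigning reads to transcripts is not in the files. The remaining ARID genes had values on the side of Arid1a without being called: Arid1b 0.18 and Arid2 0.20, with edgeR adjusted p = 0.125 for both. They were called with no filter on low counts (edgeR adjusted p = 0.034 and 0.019) and with a replicate block (0.0028 and 0.0021), which also called Smarca2 (0.038) and Brd7 (0.026). Smarca4 (-0.04), Smarca2 (0.10), Brd9 (-0.05), Brd7 (-0.18) and Bicral (0.00) were not called, and with protein-coding transcripts alone the Brd9 value turned to 0.17. Groups did not overlap for 7 members, against 59.1% of all genes.

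**Figure D2:**
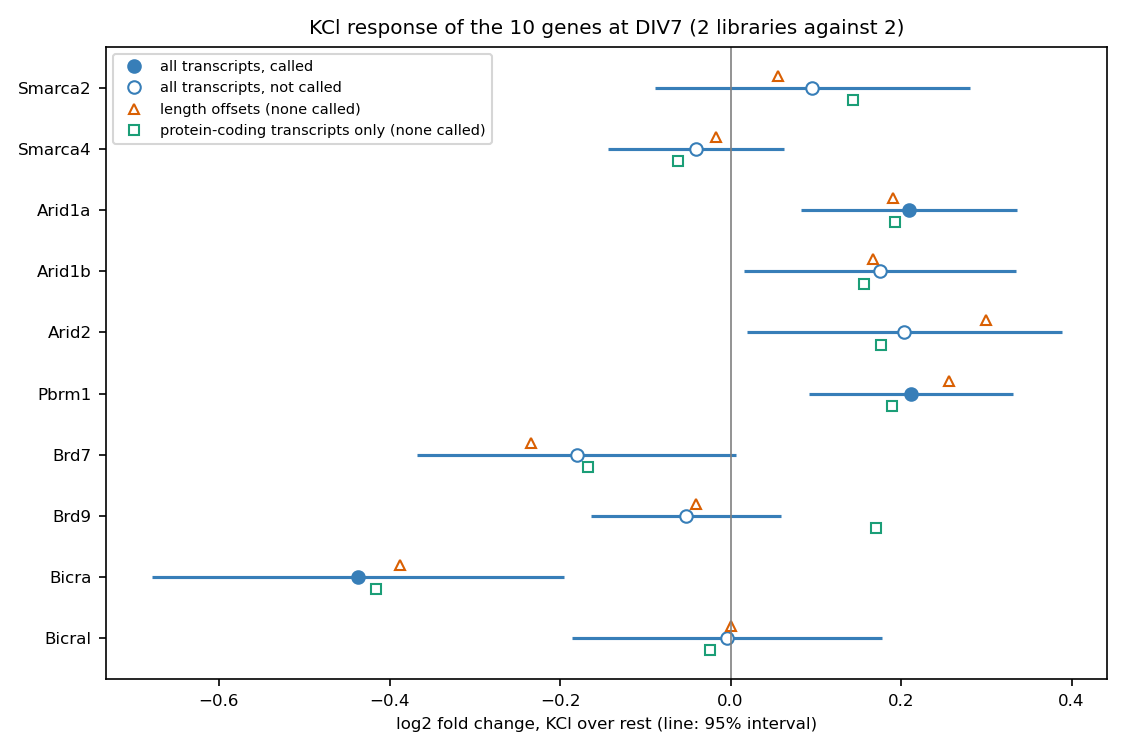
Log2 fold change of KCl over rest at DIV7 for each gene, with its 95% interval (blue line), and the value with offsets for effective length (triangles) or with protein-coding transcripts only (squares). Arid1a, Pbrm1 and Bicra are called with all transcripts (filled points) and none is called under either other setting.

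None of these 3 calls held when effective transcript length entered the fit (edgeR adjusted p from 0.080 to 0.112) or when only protein-coding transcripts were summed (0.061 to 0.072). The log2 fold changes stayed close in size, at 0.19 for Arid1a, 0.26 for Pbrm1 and -0.39 for Bicra with length offsets and at 0.19, 0.19 and -0.42 with protein-coding transcripts. On simulated counts for this comparison the share of false calls was above the nominal level. With any 1 of the 4 libraries left out, 1 member was called; without DIV7 rest replicate 1 the value of Arid1a was 0.15 and of Pbrm1 0.17. Among 18 other subunits of the family, 3 fell at DIV7: Smarcd2 by 1.12, Dpf2 by 0.47 and Smarcd1 by 0.30 on the log2 scale. Smarcd1 and Smarcd2 encode alternative BAF60 subunits, and Dpf2 a PHD-finger subunit of canonical BAF. The median log2 fold change was 0.05 for the 10 members, -0.13 for the 18 other subunits and 0.00 for all genes. Of the cell type markers, Gfap (-0.49), Slc1a3 (-0.22) and Tubb3 (-0.53) fell and Map2 (0.20) and Ube2c (1.14) rose, and the astrocyte sum was 580 to 652 CPM at rest and 526 to 539 CPM under KCl. The part of these markers in the members' differences was not tested.

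At DIV18, KCl called none of the 10 members in NT, vector or WT neurons. Few genes of any kind were called there (0.00955%, 0.0716% and 0.043% of 20940), so a count of 0 says little about the members. At an unadjusted p under 0.05 the counts were 1, 0 and 0 members, against 4.33%, 10.3% and 4.97% of all genes, and DESeq2 called none. The libraries of KCl and rest did not overlap for 5, 2 and 3 members, against 33.4%, 15.7% and 21.7% of all genes. The largest value in NT was that of Brd9, at 31.6 and 38.0 CPM at rest and 30.4 and 24.7 under KCl, a log2 fold change of -0.33 with an edgeR adjusted p of 1. The difference between the DIV7 response and the NT response was called for no member (2.34% of 21072 genes were called); for Bicra the difference was -0.41 with a 95% interval from -0.77 to -0.04 and an edgeR adjusted p of 0.268. The difference between the vector and NT responses, and that between the WT and vector responses, were called for no member and no other gene (0%) in the edgeR fit, and DESeq2 called no member. The unadjusted p was under 0.05 for 1 member in each of these 2 tests, against 8.81% and 3.67% of all genes.

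Neurons with the Smarcc2 knockout and vector had more Arid1a and less Brd9 RNA than NT at rest, and less Smarca2 RNA under KCl. The labels name no vector for NT, so the parts of the knockout and of the vector cannot be told apart. At rest, 2 of the 10 members were called between vector and NT, against 5.9% of all genes, and under KCl 1 member, against 2.67%. The libraries did not overlap for 4 members at rest (34.4% of all genes) and 5 under KCl (35.8%). Arid1a stood at 186 and 175 CPM in NT at rest and at 271, 250 and 196 CPM in the vector libraries. All 3 vector libraries lay above both NT libraries, with the third much closer to NT than the others. The log2 fold change was 0.41 (SE 0.098, 95% interval 0.20 to 0.61, edgeR adjusted p = 0.020). Under KCl it stood at 191 and 187 CPM in NT and at 223, 239 and 211 CPM with the vector. The groups again did not overlap, but the difference of 0.25 (interval 0.04 to 0.45) was not called (edgeR adjusted p = 0.199).

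Smarca2, the BRM-type motor, went the other way. Under KCl it stood at 167 and 189 CPM in NT and at 130, 131 and 114 CPM with the vector. All vector libraries lay below NT, with a log2 fold change of -0.51 (SE 0.108, 95% interval -0.73 to -0.28, edgeR adjusted p = 0.018). At rest it stood at 175 and 175 CPM in NT and at 154, 148 and 124 CPM with the vector. These groups did not overlap either, and the difference of -0.30 (interval -0.53 to -0.08) was not called (edgeR adjusted p = 0.107). Smarca4, the alternative motor, gave 0.12 at rest and -0.05 under KCl.

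Brd9 stood at 31.6 and 38.0 CPM in NT at rest and at 26.4, 28.0 and 26.6 CPM with the vector. The vector libraries were lower and close to one another, with a log2 fold change of -0.36 (SE 0.105, edgeR adjusted p = 0.047). Under KCl the value was 0.09 and the groups overlapped. The difference between these 2 differences was 0.45 (interval 0.14 to 0.77) with an edgeR adjusted p of 0.472. Arid2, the ARID subunit of PBAF, lay higher in all vector libraries than in NT in both states (0.21 and 0.13), without being called in the main fit. With no filter on low counts 2 members were called at rest, and Brd9 was not among them, so the called members differed from the main fit.

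**Figure D3:**
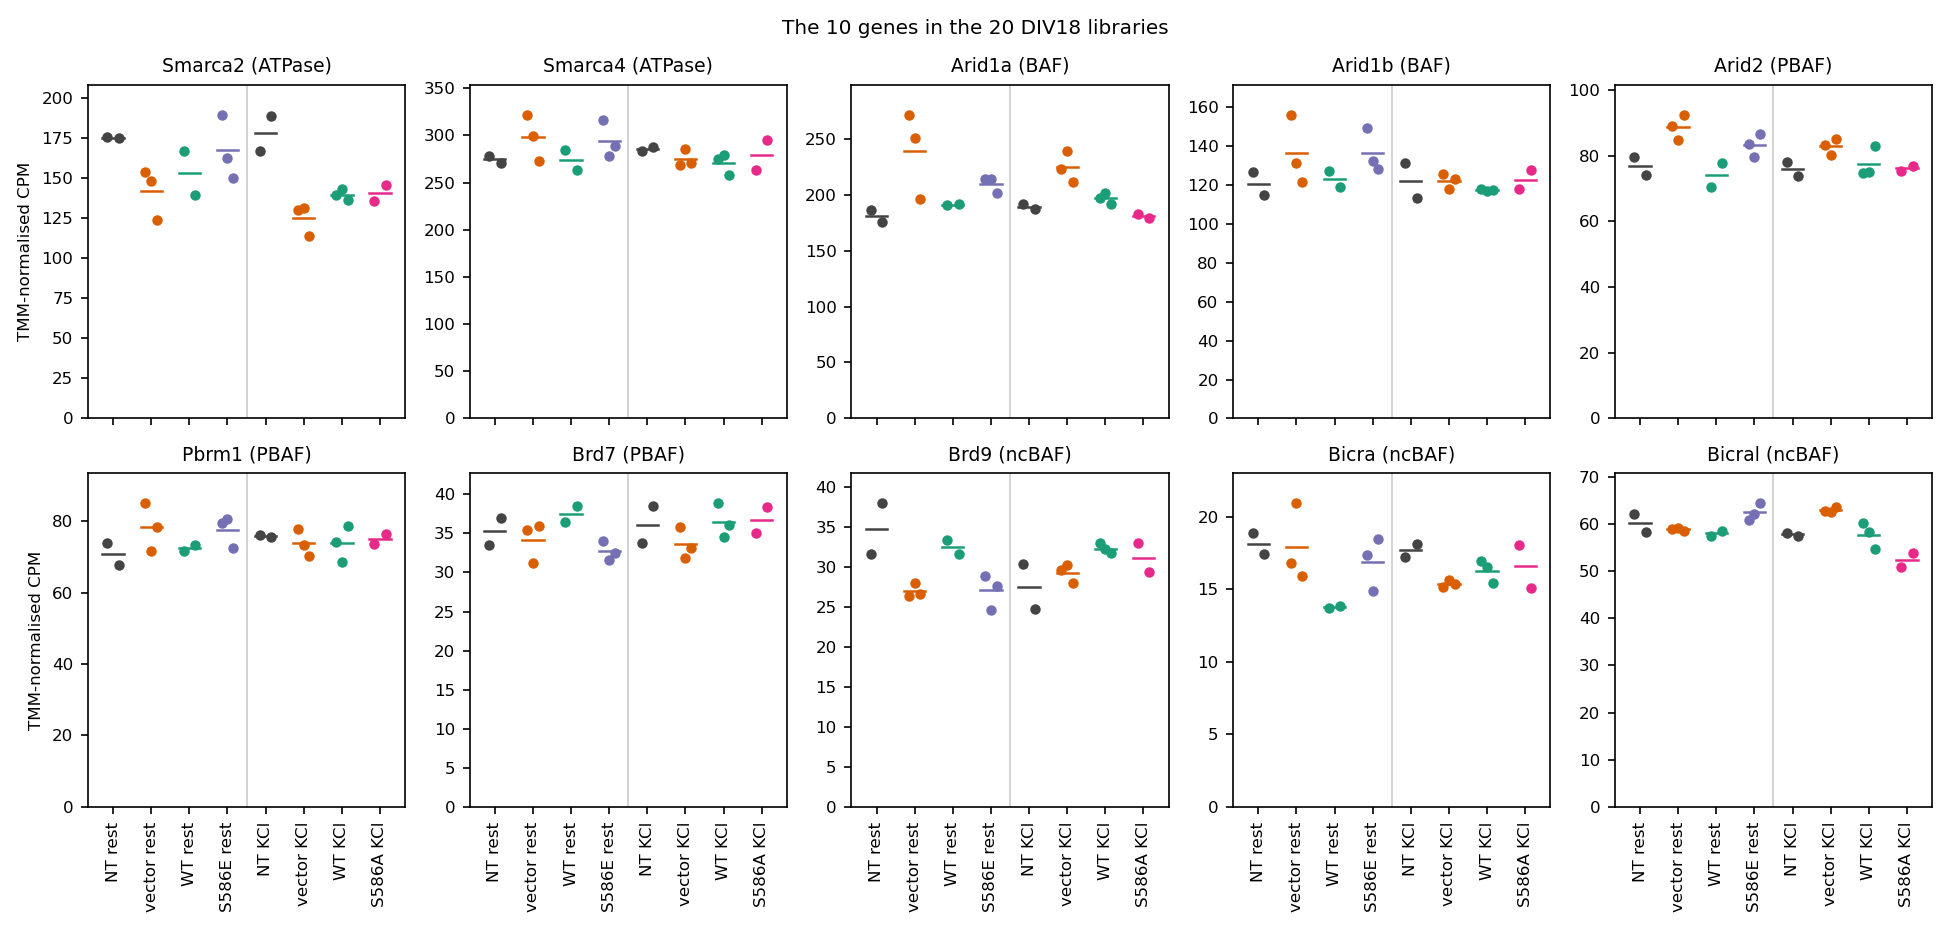
TMM-normalised CPM of each gene in the 20 DIV18 libraries, 1 point per library and a line at the group mean, resting groups left of the vertical line and KCl groups right of it. Arid1a has its highest group means in the vector groups (196 to 271 CPM at rest), and Smarca2 in the vector group under KCl (114 to 131 CPM) lies below NT.

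The calls of Arid1a, Brd9 and Smarca2 rested on few libraries. The call of Arid1a was lost without NT rest replicate 1, NT rest replicate 2, vector rest replicate 1 or vector rest replicate 2 (edgeR adjusted p from 0.056 to 0.30), and also when only these groups were fitted (0.155); it was 0.53 and called without vector rest replicate 3. Brd9 without NT rest replicate 2 was -0.23 (edgeR adjusted p = 0.572) and lost its call without any of the 3 vector libraries (0.067 to 0.111), with no filter, length offsets, protein-coding transcripts only or only these groups (0.066 to 0.257). Smarca2 under KCl lost its call without NT KCl replicate 2 (edgeR adjusted p = 0.314) or vector KCl replicate 3 (0.078), with protein-coding transcripts only (-0.39, 0.0998) and with length offsets (-0.35, 0.195), which took its value at rest to -0.08.

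Markers of other cell types moved with the same contrast. Astrocyte markers summed to 1627 to 1787 CPM in NT and 942 to 1346 CPM with the vector at rest, and to 1437 to 1884 against 878 to 1022 CPM under KCl. Oligodendrocyte lineage markers summed to 200 to 215 against 134 to 151 CPM at rest and 131 to 204 against 120 to 138 CPM under KCl. Proliferation markers summed to 15.6 to 32.5 against 2.25 to 4.93 CPM at rest, and neuronal markers to 4995 to 5055 against 4712 to 5298 CPM. At rest 2 of 8 astrocyte markers (Aldoc, Slc1a2), 5 of 9 oligodendrocyte lineage markers (Bcas1, Cspg4, Olig1, Pdgfra, Sox10), 3 of 6 proliferation markers (Cdk1, Mki67, Top2a) and the microglial Csf1r fell, and Sox10 had no count in any vector library. Under KCl 3 of 8 astrocyte markers (Aqp4, S100b, Slc1a2), 3 of 9 oligodendrocyte lineage markers (Olig1, Olig2, Pdgfra) and the neuronal Snap25 fell. In bulk RNA, fewer cells of a type and less RNA per cell cannot be told apart, and the part of these markers in the members' differences was not tested.

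Addback of Smarcc2 called none of the members against the vector, in any of the 4 comparisons. The libraries did not overlap for 5 members with WT at rest (26.1% of all genes), 1 with S586E (11.1%), 5 with WT under KCl (10.1%) and 4 with S586A (32%). Smarcc2 itself was called in each of the 4, and at most 4 of 20940 genes (0.0143% for WT and 0.0191% for S586E at rest, 0.00955% for WT and for S586A under KCl) were called in all. Arid1a was lower than with the vector in all 4: the log2 fold change was -0.33 (interval -0.53 to -0.12) for WT at rest, -0.19 (-0.37 to -0.01) for S586E at rest, -0.19 (-0.37 to -0.01) for WT under KCl and -0.31 (-0.52 to -0.11) for S586A under KCl. With S586E it stood at 214, 214 and 201 CPM, overlapping the lowest vector library, and with WT under KCl at 197, 202 and 191 CPM, below all vector libraries. With S586A it stood at 182 and 179 CPM. These comparisons share their vector libraries with each other and with the comparison against NT. In WT at rest Arid1a stood at 190 and 191 CPM. Between WT and vector at rest no cell type marker was called, and the median log2 difference was 0.37 for 8 astrocyte markers, 0.25 for 9 of the oligodendrocyte lineage, 0.84 for the 3 microglial markers tested, 0.53 for 6 proliferation markers and -0.06 for 8 neuronal markers, beside -0.01 for all genes. Microglial markers summed to 6.197 to 8.48 CPM with WT, 3.77 to 4.14 with the vector and 7.43 to 8.00 in NT at rest, astrocyte markers to 1073 to 1168 CPM with WT and oligodendrocyte lineage markers to 114 to 130 CPM. No cell type marker was called in the remaining addback comparisons with the vector either. For S586E at rest, WT under KCl and S586A under KCl the median was 0.24, 0.38 and 0.48 for astrocyte markers. It was 0.05, 0.83 and 0.63 for the oligodendrocyte lineage, 0.84, 0.03 and -0.34 for microglial and 0.16, 0.05 and 0.06 for neuronal markers. The part of the markers in the member differences was not tested. Without vector rest replicate 3 the Arid1a value of WT at rest was -0.45 and was called (edgeR adjusted p = 0.024).

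Smarca2 was 0.11, 0.24, 0.16 and 0.17 above the vector for WT at rest, S586E at rest, WT under KCl and S586A under KCl, not called in any. Under KCl it remained below both NT libraries in all addback libraries, at 139, 143 and 136 CPM with WT and at 136 and 145 CPM with S586A. Against NT these values were -0.35 for WT (edgeR adjusted p = 0.211; DESeq2 adjusted p = 0.047) and -0.34 for S586A (edgeR adjusted p = 0.239). Brd9 stood at 33.4 and 31.7 CPM with WT at rest, above the vector libraries, and at 28.9, 24.7 and 27.7 CPM with S586E, overlapping them. Against NT at rest Brd9 with S586E was -0.36 (edgeR adjusted p = 0.069, DESeq2 adjusted p = 0.042), in a comparison in which 2.78% of genes were called. Against NT, the comparisons of WT at rest (0.105% of genes called), WT under KCl (0.201%) and S586A under KCl (0.43%) called none of the members in edgeR either. The libraries of these comparisons did not overlap for 3, 5 and 3 members, against 40.3%, 28.2% and 42.4% of all genes, and for S586E against NT for 4 members, against 34.9%.

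**Figure D4:**
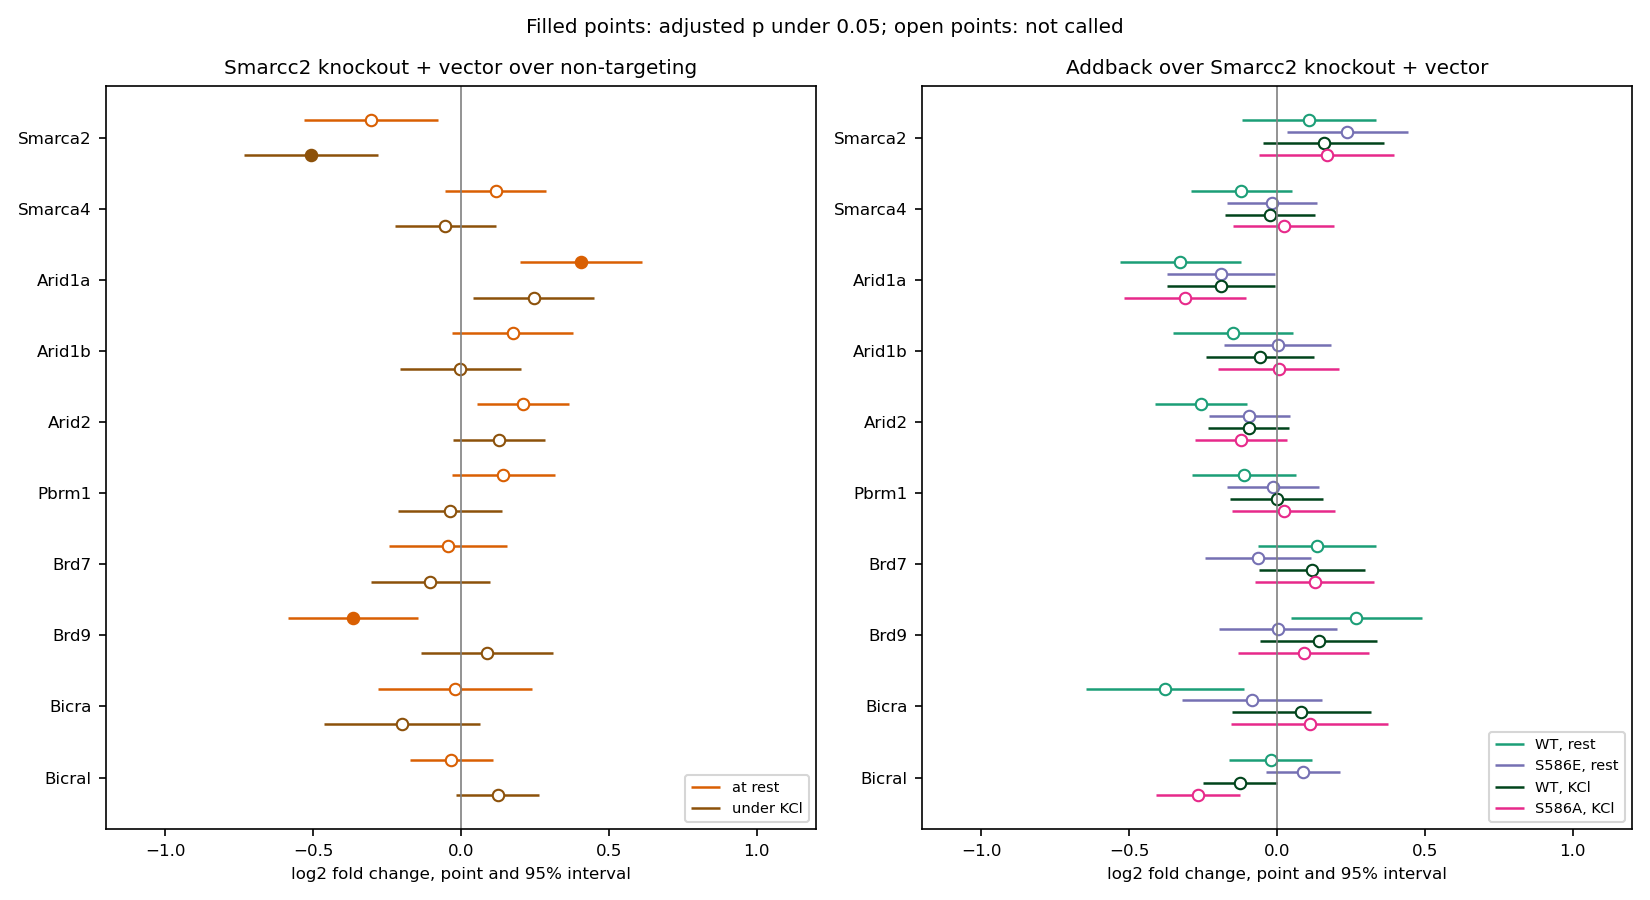
Log2 fold changes of the 10 genes with 95% intervals for vector over NT (left, at rest and under KCl) and for each addback over the vector (right); filled points are called at an adjusted p under 0.05. Arid1a (0.41) and Brd9 (-0.36) at rest and Smarca2 under KCl (-0.51) are the filled points, and none is filled on the right.

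The substitutions S586E and S586A gave no called difference from WT addback for any member. No gene of 20940 was called for S586E at rest or S586A under KCl (0% in both) in edgeR; at an unadjusted p under 0.05 there were 4 members and 1 member, against 12.9% and 8.71% of all genes. The largest differences at rest were those of Bicra, 0.29 (interval 0.03 to 0.56), and Brd9, -0.27 (-0.49 to -0.05). Bicra stood at 13.7 and 13.9 CPM with WT and at 17.4, 14.9 and 18.5 CPM with S586E, and the groups did not overlap. Here WT was the low group: both WT libraries also lay below all NT and vector libraries at rest. The mean was 18.2 CPM in NT, 17.9 CPM with the vector and 16.9 CPM with S586E. Groups did not overlap for 7 of 10 members in S586E against WT, where 31.3% of all genes had such groups, and for 2 of 10 in S586A against WT, where 25.7% had. Under KCl the member differences between S586A and WT ran from -0.14 (Bicral) to 0.06 (Arid1b), with all their 95% intervals between -0.33 and 0.29. Bicral stood at 51.0 and 53.8 CPM with S586A, at 60.2, 58.4 and 54.6 with WT and at 62.8, 62.6 and 63.7 with the vector. The S586A libraries were the lowest of all DIV18 libraries, and the difference from the vector was -0.27 (edgeR adjusted p = 0.137, DESeq2 adjusted p = 0.030).

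The ratio of the exclusive ARID1 subunits followed Arid1a. The TPM ratio of Arid1a to Arid1b was 1.43 and 1.45 in NT at rest and 1.64, 1.80 and 1.52 with the vector. Under KCl it was 1.41 and 1.56 in NT and 1.78, 2.02 and 1.70 with the vector. The vector libraries lay above NT in both states, by 0.19 and 0.30 on the log2 scale. The addback libraries of each of the 4 comparisons lay below the vector libraries of their state, with 1.31 and 1.49 for WT at rest, 1.31, 1.44 and 1.34 for S586E, 1.66, 1.59 and 1.46 for WT under KCl and 1.53 and 1.31 for S586A. With protein-coding transcripts alone the WT and S586E libraries at rest overlapped the vector libraries, with differences of -0.16 and -0.18.

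The ratio of Smarca2 to Smarca4 was lower with the vector than in NT. It was 0.881, 0.976 and 0.863 with the vector at rest and 0.896, 0.791 and 0.793 under KCl, below all NT libraries of each state, by 0.18 and 0.28 on the log2 scale. With WT it was 1.09 and 0.928 at rest and 0.802, 0.966 and 0.971 under KCl, overlapping the vector and NT in both states. S586E at rest overlapped the vector and NT (-0.06 against NT). S586A under KCl overlapped the vector and lay below NT (-0.23). The ratio of Bicra to Bicral also lay below NT with the vector, with log2 differences of -0.34 at rest and -0.37 under KCl. At rest it lay below NT with WT (-0.48) and S586E (-0.50) as well, so this was not particular to the vector. Under KCl WT (-0.26) and S586A (-0.17) overlapped NT. With protein-coding transcripts alone, under KCl the vector overlapped NT (-0.22) and WT lay below NT (-0.31). The level of Bicral is uncertain. For Pbrm1 to Arid1a the vector overlapped NT in both states, while S586A lay above WT (0.39) and above the vector (0.35) under KCl. Exact two-sided permutation tests over unpaired libraries cannot go below p = 0.1 with 3 libraries against 3, 0.2 with 3 against 2 or 0.333 with 2 against 2. Over the 96 such tests of 6 ratios the smallest adjusted p was 0.698.

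**Figure D5:**
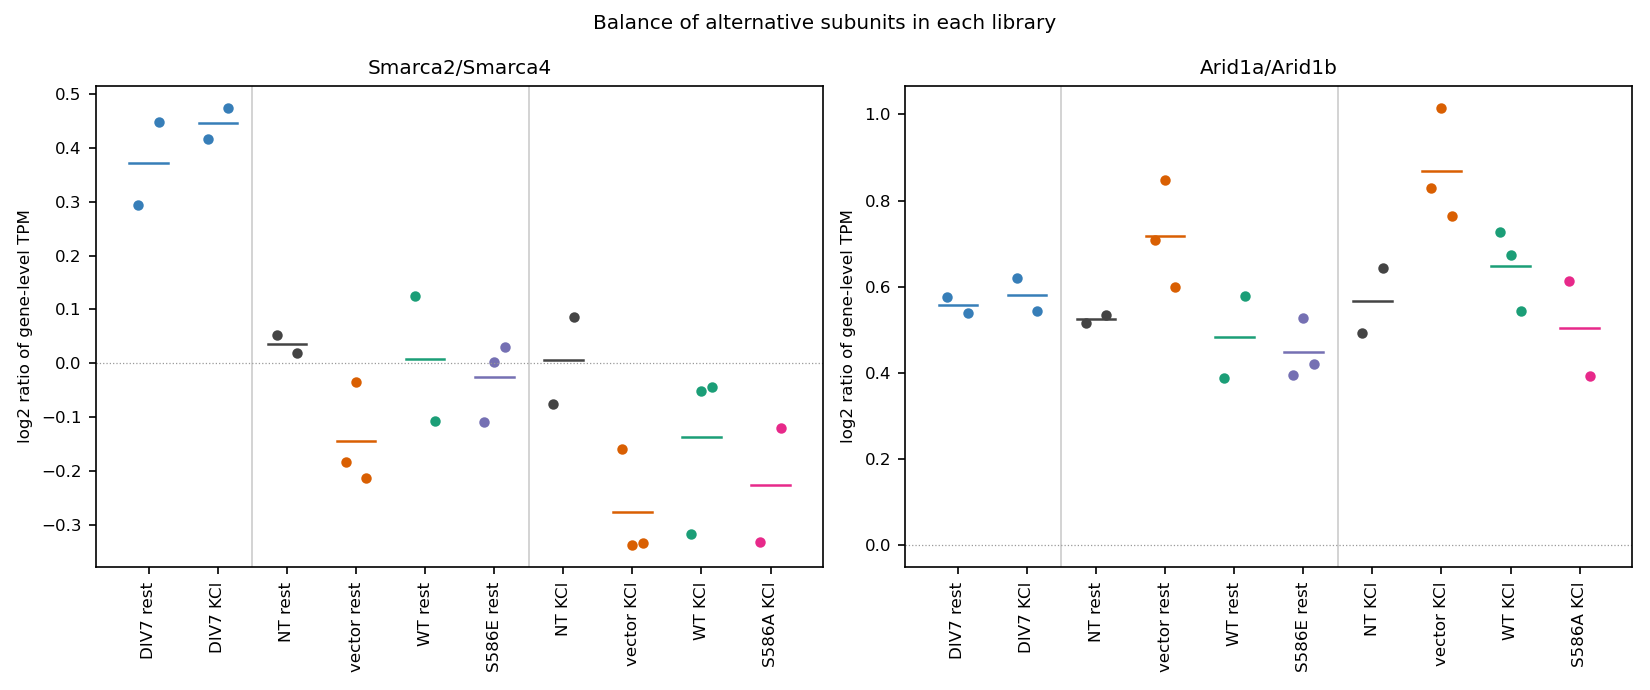
Log2 of the TPM ratio of Smarca2 to Smarca4 (left) and of Arid1a to Arid1b (right), 1 point per library and a line at the group mean, for the 10 groups. The vector libraries lie below NT of their state on the left and above NT on the right (differences of -0.18 and -0.28, and of 0.19 and 0.30), and the axes do not start at 0.

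The transcript forms behind Smarca2 differed among libraries. In NT at rest its leading transcripts were the full-length coding Smarca2-201 (5921 bases, 10.1 and 10.6 TPM), the nonsense-mediated decay form Smarca2-202 (5913 bases, 8.51 and 9.94 TPM) and the short coding Smarca2-239 (800 bases, 6.84 and 7.52 TPM). With the vector at rest, Smarca2-201 ran from 7.03 to 7.96 TPM and Smarca2-239 from 2.06 to 5.35 TPM, both below NT. Under KCl, Smarca2-201 ran from 12.4 to 12.7 TPM in NT and from 8.29 to 9.77 TPM with the vector, and Smarca2-239 from 4.62 to 6.11 and from 0 to 1.69 TPM. The long and the short form were thus both lower in the vector libraries in both states. Arid1a was simpler: its transcript Arid1a-205 carried a mean of 75.9% of its TPM in NT at rest and 77.8% with the vector.

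Of the 18 other subunits, Smarcc2, Smarcd3 (0.52) and Smarce1 (0.45) were called between vector and NT at rest. Smarcd3 encodes the neuronal BAF60C and Smarce1 the HMG-box subunit BAF57. Under KCl only Smarcc2 was called in edgeR. In S586E against NT at rest 2 of the 18 were called higher, against 2.78% of all genes. In the DIV7 response against the NT response 1 of the 18 was called lower, against 2.34% of all genes. Smarcc1, the paralogue of Smarcc2, stood at 88.5 to 102 CPM in NT at rest and 89.0 to 94.5 CPM with the vector and was not called in any comparison.

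Across the 20 DIV18 libraries, Smarca2 ranged 1.67-fold from lowest to highest, Arid1a 1.55-fold and Brd9 1.54-fold, and Smarca4 and Brd7 1.25-fold. The genes whose log2 CPM was most like that of Smarca2 among 13309 protein-coding genes were Cplx1 (Pearson r = 0.94), Ap2a2 (0.93) and Spata13 (0.93). Those most like Arid1a were Sdk2 (0.90), Med13l (0.90) and Nyap2 (0.89), those most like Smarca4 were Synrg (0.87), Rbm45 (0.87) and Rtn4 (0.87), those most like Pbrm1 were Fam49a (0.84), Fnip1 (0.81) and Fut9 (0.80), and those most like Brd9 were Itpka (0.88), Myd88 (0.84) and Stard10 (0.84). The libraries share their constructs, states and depth, so these values are descriptions over 20 libraries.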

How the data were processed

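Each of the 24 tables gives, per the file headers, length, effective length, estimated count and TPM for every transcript; the submitters' processing notes name FastQC, cutadapt and kallisto. The genome build is not given in the sources used here. Identifiers of 99.2% of 142552 transcripts matched GENCODE M21 (GRCm38), whose gene positions are used. The estimated counts deposited by the authors were added up by gene, then rounded to whole numbers. The TPM values deposited by the authors were summed per gene for comparisons between genes, and the deposited effective length entered only the length offsets.

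Counts were tested in edgeR 4.0.16 (quasi-likelihood F test, TMM, filterByExpr, Benjamini-Hochberg over all genes, called at an adjusted p under 0.05). The DIV7 libraries were fitted alone (19822 genes, 2 residual degrees of freedom) and the DIV18 libraries together (20940 genes, 12 degrees). The responses at the 2 ages were compared in a fit of 8 libraries. Alternatives were RLE size factors, DESeq2 1.42.0, no filter, a replicate block, length offsets, protein-coding transcripts only, only the groups compared, and each library left out. The fits were tested on simulated counts with known changes; small changes were mostly missed, and for KCl at DIV7 false calls exceeded the nominal level.

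The genes and lists were chosen with earlier results of these data known. The named genes are the 10 members, Smarcc2, Smarcc1, other subunits called for KCl at DIV7 or for vector against NT, and the 3 genes most like each of 5 members. Whether 1 embryo was split across states or constructs is not given in the sources used here. Replicate numbers were taken as pairs where 3 or more same-numbered libraries all deviated together (r over 0.1): WT against vector under KCl (0.106 to 0.236) and S586E against vector at rest (0.103 to 0.293). Pairing entered only the replicate block setting. The main fits, their intervals and the permutation tests treated all libraries as unpaired, also in these comparisons.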

Additional observations from a re-analysis of the deposited data

How the results depend on the processing

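The number of members called moved as follows. For KCl at DIV7 (3) it was 5 with no low-count filter, 7 with the replicate block, 0 with length offsets, 0 with protein-coding transcripts only and 1 with any library left out. For vector against NT at rest (2) it was 1 with length offsets, 1 with protein-coding transcripts only, 0 with only the groups compared and 0 to 1 with a library left out. For vector against NT under KCl (1) it was 2 with the replicate block (Arid1a added at 0.30), 0 with length offsets, 0 with protein-coding transcripts only and 0 to 1 with a library left out. DESeq2 called 1 member in S586A against vector (of 215 genes called, main 2), 1 in WT against NT under KCl (of 296, main 42; also 1 with no filter, of 704) and 1 in S586E against NT (of 1107, main 583). Leaving out a library gave 0 to 1 in S586E against NT and in WT against vector at rest. The block changed no member call in the comparisons taken as paired. Elsewhere the labels do not say whether a shared number marks a pair. Some same-numbered libraries there deviated together, with r of 0.104 in WT against NT at rest and 0.111 and 0.120 under KCl. Others did not, such as KCl against rest in NT (r of -0.047). Without DIV7 rest replicate 1 the Smarca2 value at DIV7 turned from 0.10 to -0.0078 (leave-one-out range up to 0.20). The causes were not tested. A lone library left in a group is assumed to vary like the others. Of 1212 values of 175 other member results under other settings, 72 changed sign, at a main size of at most 0.18. With a library left out, 101 of 1012 values of the same results changed sign. With protein-coding transcripts only, the log2 difference of Smarca2/Smarca4 moved by over 1 SD to 0.21 (DIV7 KCl), 0.061, 0.073 and 0.098 (KCl in NT, vector and WT), -0.28 (vector against NT, rest), 0.095 (S586E against WT), -0.33, -0.21 and -0.47 (S586A against WT, vector and NT) and -0.17 (WT against NT, rest), that of Arid1a/Arid1b to 0.061 (WT) and 0.041 (S586E against NT, rest), that of Arid2/(Arid1a+Arid1b) to -0.066 (KCl in NT), and that of Bicra/Bicral to 0.035 (KCl in vector). That of Brd7/Brd9 moved to 0.27, 0.16 and 0.37 (vector, WT and S586E against NT, rest), -0.11 and 0.10 (WT and S586E against vector, rest), -0.070 (WT against vector, KCl), 0.21 (S586E against WT) and 0.056 (S586A against WT). With RLE factors 2 of 100 group means of the members moved by over 1 SD. TPM is on another scale and was not set against CPM. The number of all genes called ran from 1851 to 5854 (DIV7 KCl, main 3371), from 225 to 2016 (vector against NT at rest, 1236), from 278 to 1438 (under KCl, 560) and from 168 to 1581 (S586E against NT, 583) over these settings, and without NT rest replicate 2 the counts at rest were 100 and 3. Small differences can go uncalled at this depth and replication.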
